A study of Mus musculus with 15 samples.

Results

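The livers of DEN/HFD mice that received saline were compared with the livers of chow mice that received saline, 4 libraries against 3 of the 15 in the series. The libraries were taken by their sample titles, and all expressed genes entered, 11568 of 54281 in the deposited table. Each library came from the liver of 1 male C57BL6J mouse, aged 9.5 months. DEN/HFD mice had been injected at 2 weeks of age with 25 mg/kg of DEN, the liver carcinogen diethylnitrosamine, and later fed for 32 weeks a high fat diet with 60% of its energy from lard. Chow mice had been given the vehicle of DEN and stayed on chow. Both groups then had saline by the intraperitoneal route on the schedule of the drug arm, 5 days of injections and 2 days of rest per cycle for 3 cycles, 21 days in all. DEN and the diet were always given together, so that their effects cannot be told apart. The labels do not say whether the liver piece held tumour. The same contrast in mice given MCOPPB at 5 mg/kg, a ligand of the nociceptin receptor, held 3 DEN/HFD and 5 chow libraries, shared no library with the saline contrast and is set beside it only for genes named here.

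DEN is turned by cytochrome P450 enzymes of the hepatocyte into a compound that alkylates DNA, and a high fat diet loads hepatocytes with triglyceride and draws macrophages into the liver. Fatty livers are known for lipid droplet proteins such as CIDEA and CIDEC, for macrophages that take up lipid, and for stress kinases that end on the AP-1 transcription factors of the JUN family. Male and female mouse livers also differ in many cytochrome P450, major urinary protein and steroid enzyme genes, which follow the pulses of growth hormone, and obesity is known to blunt the male pattern.

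Values are given as normalized counts, obtained by inverting the deposited variance-stabilised log2 values. Log2 differences, DEN/HFD minus chow, are on the deposited scale, which compresses genes with few reads, and carry the standard error (SE) of the limma model. Genes count as called where limma's p, adjusted by Benjamini-Hochberg over all 11568 genes, was under 0.05, and all adjusted p values below are of this kind. The estimated depth was 12700000 to 18200000 reads in DEN/HFD and 14100000 to 16700000 reads in chow libraries. Hepatocyte markers were high in all 7 libraries, with albumin (Alb) between 1192307 and 2839451 normalized counts and transthyretin (Ttr) between 121420 and 214371. Mitochondrially encoded transcripts took 16.6% ± 4.78 (SD, n = 4) of normalized counts in DEN/HFD and 23.8% ± 4.95 (SD, n = 3) in chow livers (exact permutation test, two-sided, p = 0.114, where the smallest possible p is 0.0286). The first of 2 RNA integrity values in the labels averaged 8.85 ± 0.342 in DEN/HFD (n = 4) and 9.23 ± 0.404 in chow (n = 3; exact permutation p = 0.286), and with it as a covariate 1 gene, Cyp2b9, was called. Cyp2b9 was also the 1 gene called when mitochondrial transcripts were left out of the total. That fit also used log2 of normalized counts plus 10, a scale on which 3 genes were called without the change of total.

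Among the libraries, 3 stood apart. Chow saline 2 had the lowest correlations with the other 6 (r = 0.902 to 0.929 across genes), and lay at 48.37 on the first principal component, which held 33.1% of the variance, with the other 6 between -20.52 and 6.715. It also had the largest mitochondrial share of the 7 (29.3%) and the fewest genes above the lowest value (13863, beside 14841 to 16099). Without it 1 gene, Cyp2b9, was called. DEN/HFD saline 4 correlated more closely with chow saline 1 (r = 0.967 across genes) than with the other 3 DEN/HFD libraries (r = 0.930 to 0.958), so the main results are given with and without it. Chow saline 3 carried transcripts of skeletal muscle and adipose tissue. Its skeletal actin (Acta1) stood at 1264 normalized counts, beside 43.2 and 2.12 in the other chow libraries and 0 in all 4 DEN/HFD libraries, and its adiponectin (Adipoq) at 147, beside 14.2 and 0 in the other chow and 0 in all DEN/HFD libraries. Over 10 muscle genes, summed normalized counts ran from 61.6 to 4719 in chow and from 6.97 to 27.4 in DEN/HFD livers.

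Across all libraries 6 genes differed between DEN/HFD and chow livers (0.0519% of those tested). Of these, 4 were higher (0.0346%) and 2 lower (0.0173%) in DEN/HFD. The higher genes were Cyp2b9, Gpc1, Jund and Jun, and the lower ones Cyp4a12b and Ttn, and for each of them the 4 DEN/HFD libraries did not overlap the 3 chow libraries. When the spread was estimated from the 7 saline libraries alone, 4 genes were called, 1 higher and 3 lower, and Gpc1 (adjusted p = 0.231), Jund (0.229) and Jun (0.378) were not among them. At an unadjusted p under 0.05 there were 632 higher genes (5.46%) and 636 lower (5.5%). Counts of list members called, or at an unadjusted p under 0.05, are to be read beside these shares of all genes. The groups did not overlap for 547 genes on the higher side (4.73%) and 504 on the lower (4.36%), and 51.4% of all differences were positive, with a median of 0.01.

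**Figure D1:**
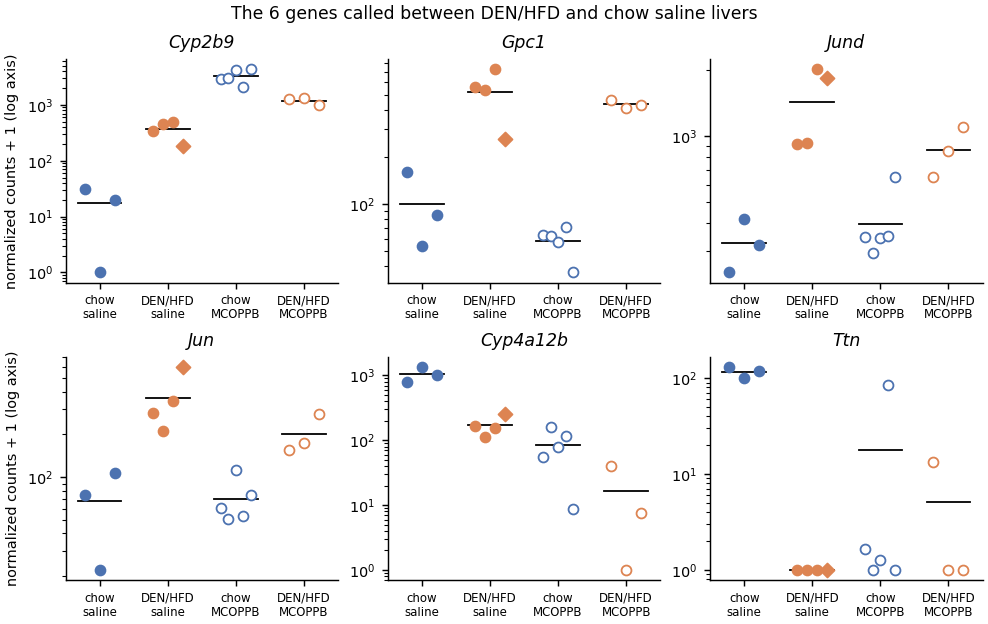
Normalized counts plus 1 (log axis) of the 6 called genes in every library of the 4 groups. Filled points are saline and open points MCOPPB livers, blue is chow and orange DEN/HFD, the diamond is DEN/HFD saline 4, and lines are group means. In saline livers no DEN/HFD point overlaps a chow point for any of the 6 genes.

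Cyp2b9 encodes a cytochrome P450 of the 2B family that is better expressed in female than in male mouse liver. It stood at 30.4, 0 and 18.4 normalized counts in chow livers 1 to 3 and at 339, 447, 487 and 181 in DEN/HFD livers 1 to 4. Every DEN/HFD liver exceeded every chow liver, and the library that stood apart was the lowest of the 4. The mean rose from 16.3 ± 15.3 (SD, n = 3) to 363 ± 137 (SD, n = 4), a log2 difference of 2.57 ± 0.31 (SE, adjusted p = 0.00198). Cyp2b9 was the only one of the 6 genes called with each of the 7 saline libraries left out in turn, at adjusted p from 0.000201 to 0.0199. The gene lies on the plus strand at chr7:26173411-26210661 (GRCm38, GENCODE M21).

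Its neighbour and near copy Cyp2b13, at 0 in all 3 chow livers, stood at 15.9, 10.4, 25.9 and 13.7 normalized counts in DEN/HFD livers. Its log2 difference of 0.85 ± 0.23 was not called (adjusted p = 0.192). Cyp2b10, of the same family and the classical target of the xenobiotic receptor CAR, stood at 0, 0 and 54.8 in chow and 16.6, 16.3, 3.71 and 29.7 in DEN/HFD livers, with overlapping groups (log2 difference 0.31 ± 0.34, adjusted p = 0.792). Reads can be split between such copies, so that the values of Cyp2b9 and Cyp2b13 are uncertain in how they divide. Of 36 targets kept of the xenobiotic receptors CAR and PXR, 23 were positive with a median of 0.10 and 1 was called (Cyp2b9). With no overlap 4 of the 36 lay higher, beside 4.73% of all genes. The list mean was 10.19 to 10.28 (log2) in chow and 10.37 to 10.49 in DEN/HFD livers. The 250 bases before the RefSeq start of Cyp2b9 (plus strand, chr7:26173159-26173408) and Cyp2b13 (plus strand, chr7:26061245-26061494, both GRCm38.p6) are shown because both genes were detected in all 4 DEN/HFD livers and because the promoters are almost the same. They share 248 of 250 bases, and capitals mark the 2 that differ, T48C and C104T, with the Cyp2b9 base first and positions counted from the 5′ end of the window.

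Cyp2b9: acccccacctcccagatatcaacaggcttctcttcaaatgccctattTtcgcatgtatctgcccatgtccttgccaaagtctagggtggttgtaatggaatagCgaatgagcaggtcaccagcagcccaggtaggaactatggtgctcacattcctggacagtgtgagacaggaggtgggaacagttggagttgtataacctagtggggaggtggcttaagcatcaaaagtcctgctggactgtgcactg

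Cyp2b13: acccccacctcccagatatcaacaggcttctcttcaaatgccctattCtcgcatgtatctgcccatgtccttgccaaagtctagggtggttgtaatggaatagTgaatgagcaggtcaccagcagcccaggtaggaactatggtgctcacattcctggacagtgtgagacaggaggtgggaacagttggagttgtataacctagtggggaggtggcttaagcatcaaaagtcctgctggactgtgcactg

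Jun and Jund encode 2 of the 3 JUN proteins, the subunits of AP-1 that pair with FOS proteins. Jun stood at 73.3, 21.1 and 105.5 normalized counts in chow livers and at 280.5, 210, 341.5 and 598 in DEN/HFD livers, with DEN/HFD saline 4 the highest of all. Its mean rose from 66.6 ± 42.6 (n = 3) to 357.5 ± 169 (SD, n = 4), a log2 difference of 1.64 ± 0.28 (adjusted p = 0.0373). Jund stood at 238, 417 and 319 in chow and at 912, 926, 2007 and 1829 in DEN/HFD livers. The mean of Jund rose from 325 ± 89.5 to 1418 ± 581 (SD, n = 3 and 4), a log2 difference of 1.82 ± 0.29 (adjusted p = 0.0303). With 1 saline library left out in turn, Jun was called in 2 of 7 fits (without DEN/HFD saline 2 or 4) and Jund in 3 of 7 (without DEN/HFD saline 1, 2 or 4). In the other fits the adjusted p was 0.052 to 0.158 for Jun and 0.053 to 0.124 for Jund, and over all 7 the log2 differences were 1.34 to 1.87 and 1.63 to 1.99. Over all 29 fits tried, the reported one included, Jun was called in 11 and Jund in 19. Leaving out chow MCOPPB 1, which enters the estimate of spread, gave an adjusted p of 0.0686 for Jun and 0.0547 for Jund. An antisense gene overlaps each of them, Junos at Jun and Gm11175 at Jund, and the setting for strand in counting is not given in the sources used here.

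The third JUN gene, Junb, stood at 191, 52.1 and 86.3 normalized counts in chow and 159, 185, 194 and 676 in DEN/HFD livers, with overlapping groups (0.94 ± 0.42, adjusted p = 0.411). The partner gene Fos was at most 17.6 normalized counts in any of the 7 livers and did not pass the filter. Of 26 genes listed as immediate early genes, many of which answer within minutes to growth and stress signals, 18 were kept. Their log2 differences were positive for 15, with a median of 0.40 beside 0.01 over all genes. Of the 18, 2 were called (Jun and Jund), and 8 were higher and 1 lower at an unadjusted p under 0.05. With no overlap 4 lay higher, beside 4.73% of all genes. The mean level of the 18 was 7.19 to 7.31 (log2) in chow and 7.54 to 7.99 in DEN/HFD livers, with DEN/HFD saline 4 on top.

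The promoter of Jun is shown because JUN proteins are known to act on it. The window is the 250 bases before the RefSeq start (minus strand, chr4:95052223-95052472, GRCm38.p6). It was searched on both strands for TGANTCA, TGACNTCA and TATAAA, and capitals mark the only match, TGACATCA, 38 to 45 bases before the start. Over all 32851 promoter windows of the same length, TGANTCA was in 6.75%, TGACNTCA in 7.49% and TATAAA in 12.4%. None of the 3 was in the windows of Cyp2b9 and Cyp2b13.

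Jun: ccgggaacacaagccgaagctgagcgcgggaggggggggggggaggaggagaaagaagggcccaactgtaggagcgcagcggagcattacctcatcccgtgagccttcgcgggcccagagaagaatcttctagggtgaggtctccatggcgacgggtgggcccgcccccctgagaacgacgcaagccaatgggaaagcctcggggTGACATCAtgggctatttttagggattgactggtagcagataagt

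Gpc1 encodes glypican-1, a heparan sulfate proteoglycan of the cell surface that binds growth factors. It stood at 159, 53.2 and 84.2 normalized counts in chow and 564, 535, 728 and 261 in DEN/HFD livers. The mean rose from 98.7 ± 54.2 (SD, n = 3) to 522 ± 193 (SD, n = 4), a log2 difference of 1.77 ± 0.25 (adjusted p = 0.0108). Gpc1 was called in 4 of the 7 fits with 1 saline library left out, and its adjusted p was 0.0611, 0.0674 and 0.054 without chow saline 2, chow saline 3 or DEN/HFD saline 3. The gene is at chr1:92831645-92860779 on the plus strand, where Ankmy1 and the antisense genes Gm29480 and Gm29481 overlap it on the other strand and Mir149 on its own. Its better known relative Gpc3, a marker of liver cancer, did not pass the filter and stood at 12.6, 26.6 and 19.3 in chow and 11.95, 2.84, 4.51 and 1.06 in DEN/HFD livers. The fetal and tumour marker Afp did not pass the filter either. It stood at 1.785, 0 and 4.99 in chow and 10.2, 7.265, 5.76 and 5.395 in DEN/HFD livers, higher with no overlap but at few reads.

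Cyp4a12b encodes a fatty acid hydroxylase of male mouse liver and kidney. It stood at 801, 1359 and 1021 normalized counts in chow and at 166, 111, 154 and 257 in DEN/HFD livers. The mean fell from 1060 ± 281 (SD, n = 3) to 172 ± 61.5 (SD, n = 4), a log2 difference of -2.18 ± 0.36 (adjusted p = 0.0303). Leaving out any saline library other than DEN/HFD saline 4 raised its adjusted p to between 0.052 and 0.152, as did leaving out chow MCOPPB 1 (0.0548), which enters the estimate of spread. The near copy Cyp4a12a stood at 1279, 3436 and 2097 in chow and 2486, 569, 621 and 713 in DEN/HFD livers, overlapped, and was not called (-1.15 ± 0.67, adjusted p = 0.56), and reads of the pair may be split between them.

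Ttn encodes titin, the giant spring protein of muscle. It was listed at 130, 99.2 and 118 normalized counts in chow and at 0 in all 4 DEN/HFD livers, with a log2 difference of -2.12 ± 0.35 (adjusted p = 0.0303). Other muscle genes were far less even in chow. Troponin T3 (Tnnt3) was at 68.6, 17.4 and 852 in chow and 0 in DEN/HFD livers, and myoglobin (Mb) at 38.2, 4.84 and 403 beside 0. The 5 genes of the muscle list that were kept, Ttn not among them, all had negative differences with a median of -1.73, and none was called (3 lower at an unadjusted p under 0.05). With any saline library other than DEN/HFD saline 4 left out, the adjusted p of Ttn was 0.053 to 0.124 (0.1 without chow saline 3), and without chow MCOPPB 1 it was 0.0547. Nebulin (Neb), another giant muscle protein, was at 123, 355 and 264 in chow and 45.7, 42.2, 39.0 and 101 in DEN/HFD livers (-1.29 ± 0.29, adjusted p = 0.145, and 0.0392 without DEN/HFD saline 4). The part of carried muscle tissue in the difference of Ttn was not tested.

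Leaving out DEN/HFD saline 4 raised the number of called genes from 6 to 52 (0.45%), 42 higher (0.363%) and 10 lower (0.0864%). All 6 genes called with it stayed among them. The groups of 3 and 3 then did not overlap for 1026 higher (8.87%) and 888 lower (7.68%) genes. DEN/HFD saline 4 lay closer to chow than the other 3 DEN/HFD livers for 47 of the 52 genes, inside the range of the chow livers for 19, and past every chow liver on the side of the other DEN/HFD livers for 25. Calling genes without a library favours genes on which that library differs from its group, so these counts describe the 52 genes and support nothing about the library. With any other saline library left out, 1 to 4 genes were called, and with both DEN/HFD saline 4 and chow saline 3 left out, 22 were. These 52 genes were looked at after the library had been seen to stand apart.

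**Figure D2:**
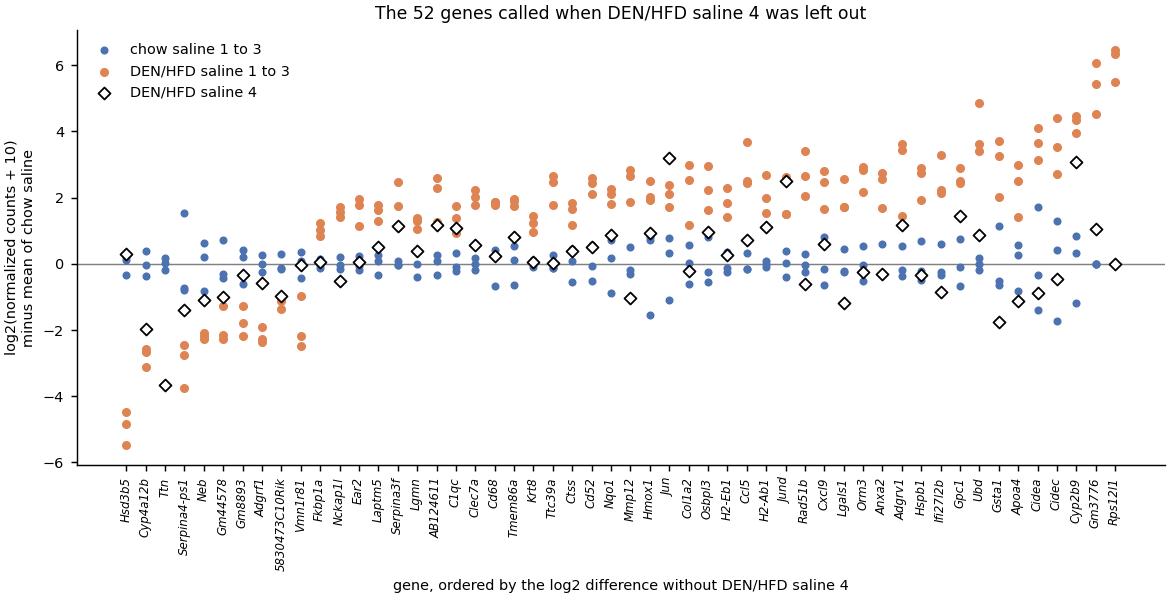
The 52 genes called when DEN/HFD saline 4 was left out, ordered by that log2 difference, each library as log2 of normalized counts plus 10 minus the mean of the chow livers. Blue points are chow, orange points DEN/HFD saline 1 to 3 and open diamonds DEN/HFD saline 4, which lies on the chow side of the other DEN/HFD points for 47 genes but not for Jun, Jund, Ttn, C1qc and Serpina3f.

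Of the lipid droplet genes, 2 were called without the fourth DEN/HFD liver, Cidea and Cidec, both higher, beside 0.363% of all genes. Cidec, which fuses lipid droplets, stood at 45.5, 2.64 and 92.6 normalized counts in chow livers and 466, 261, 864 and 20.1 in DEN/HFD livers 1 to 4. The fourth DEN/HFD liver was inside the chow range and the other 3 were well above it. With all libraries the log2 difference was 1.75 ± 0.59 (adjusted p = 0.27), and without the fourth it was 2.43 ± 0.45 (adjusted p = 0.0241). Its relative Cidea stood at 75.6, 0 and 10.9 in chow and 320, 219, 437 and 4.25 in DEN/HFD livers, and its adjusted p was 0.311 with and 0.0392 without the fourth. Of 23 lipid droplet and lipolysis genes, 21 were kept, 19 had positive differences with a median of 0.29, and none was called, with 3 at an unadjusted p under 0.05 and no member free of overlap. Their median ran from 0.15 without chow saline 2 to 0.47 without chow saline 1. Without the fourth DEN/HFD liver 3 lay higher with no overlap, beside 8.87% of all genes. The coat genes Plin2 and Plin4 overlapped with and without the fourth, at 2092 to 7662 and 19.98 to 150 in chow and 2820 to 7888 and 18.7 to 259 in DEN/HFD livers.

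Fatty acid uptake and synthesis did not give calls. The scavenger receptor Cd36 stood at 1213, 245 and 1053 normalized counts in chow and 2836, 1788, 2725 and 429 in DEN/HFD livers (1.09 ± 0.52, adjusted p = 0.459). Of 20 uptake genes kept, 15 were positive with a median of 0.19, and 1, Fabp5, lay lower with no overlap. Fabp5 was at 113, 380 and 1558 in chow and 91.9, 70.8, 99.6 and 19.4 in DEN/HFD livers (-1.92 ± 0.635, adjusted p = 0.265). Its log2 difference ran from -2.65 to -1.1 with 1 saline library left out. Fatty acid synthase (Fasn) was at 1666, 5067 and 14812 in chow and 4775, 5539, 5308 and 1887 in DEN/HFD livers, with overlapping groups (-0.31 ± 0.60, adjusted p = 0.898). The highest chow values of Fabp5 and Fasn were both in chow saline 3, which carried adipose transcripts. The part of carried adipose tissue in them was not tested. Of 26 lipogenesis genes kept, 14 had positive differences, with a median of 0.02 whose sign changed, relative to all genes, when mitochondrial transcripts were left out of the total. This median ran from -0.24 without chow saline 2 to 0.15 without chow saline 3, and none was called (2 higher and 3 lower at an unadjusted p under 0.05). With no overlap 1 of the 26 lay higher and 3 lower, beside 4.73% and 4.36% of all genes. Mlxipl, 1 of the 3, stood at 1543, 3543 and 1911 in chow and 712.5, 1107, 657 and 1184 in DEN/HFD livers (-1.225 ± 0.368, adjusted p = 0.234). Fatty acid oxidation genes, the targets of PPARalpha, had a median of 0.14 over 38 genes, 25 of them positive, none called. At an unadjusted p under 0.05 there were 6, all of them higher, and 6 lay higher with no overlap, beside 4.73% of all genes. That median was 0.02 without chow saline 2 and 0.38 without chow saline 1. One of these genes, the peroxisomal thiolase Acaa1b, stood at 9809, 8120 and 10169 in chow and 21016, 17216, 20914 and 11800 in DEN/HFD livers (0.89 ± 0.26, adjusted p = 0.213). The 26 cholesterol synthesis genes had a median of -0.18, with 9 positive and none called (5 at an unadjusted p under 0.05, 4 of them lower), and the median ran from -0.34 without chow saline 1 to 0.12 without chow saline 3.

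Lipoprotein genes were even between the groups by their median but not by their mean level. That mean was 12.64 to 12.68 (log2) in chow and 12.72 to 13.01 in DEN/HFD livers. Their summed normalized counts were 856274 to 1152389 in chow and 1549644 to 1906197 in DEN/HFD livers, a sum in which the most abundant genes, such as Apoe, weigh most. Apoa4, an apolipoprotein known to rise in fatty liver, stood at 9997, 4612 and 12098 normalized counts in chow and 47151, 22206, 64998 and 3738 in DEN/HFD livers. Its log2 difference was 1.44 ± 0.70 with all libraries (adjusted p = 0.467) and 2.30 ± 0.48 without the fourth (adjusted p = 0.0456). Apoa2 did not overlap, at 135642 to 174161 in chow and 215468 to 345422 in DEN/HFD livers, and was not called (0.86 ± 0.27, adjusted p = 0.26). Apoe overlapped, at 636765, 369200 and 380157 in chow and 614707, 873702, 1185946 and 945131 in DEN/HFD livers (0.978 ± 0.325, adjusted p = 0.265). Over the 23 apolipoprotein and lipoprotein assembly genes kept, the median was 0.02, 13 differences were positive and none was called (2 higher and 1 lower at an unadjusted p under 0.05). With no overlap 1 of the 23, Apoa2, lay higher, beside 4.73% of all genes.

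Glutathione transferases and other targets of the oxidative stress factor NRF2 leaned higher. Of 38 listed, 37 were kept, 33 had positive differences, the median was 0.33, none was called, and 9 had an unadjusted p under 0.05, all of them higher. The groups did not overlap for 5 of the 37, all higher, beside 4.73% of all genes. Without the fourth DEN/HFD liver they did not overlap for 16, all higher, beside 8.87% of all genes. The median was then 0.51, with 3 calls, Gsta1, Hmox1 and Nqo1, all higher, beside 0.363% of all genes. Gsta1, an alpha class transferase, stood at 40.8, 44.9 and 166 normalized counts in chow and 1032, 309, 748 and 13.2 in DEN/HFD livers (1.46 ± 0.63, adjusted p = 0.396, and 2.27 ± 0.40, adjusted p = 0.0208, without the fourth). Nqo1, a quinone reductase, stood at 49.3, 18.8 and 77.1 in chow and 246, 176, 217 and 87.9 in DEN/HFD livers. There every DEN/HFD liver exceeded every chow liver (1.12 ± 0.25, adjusted p = 0.145, and 0.0208 without the fourth). The predicted gene Gm3776 was listed at 0 in all chow livers and at 665, 222, 423 and 10.7 in DEN/HFD livers (adjusted p = 0.118, and 0.000302 without the fourth).

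Macrophage genes leaned higher as a group. In bulk liver, more cells of a type and more RNA per cell cannot be told apart. Of 32 genes of recruited and lipid-associated macrophages, 27 were kept, 24 had positive differences and the median was 0.65. None was called, and 12 were higher and 1 lower at an unadjusted p under 0.05. With no overlap, 2 of the 27 lay higher and 1 lower, beside 4.73% and 4.36% of all genes. Without the fourth DEN/HFD liver the median was 0.84 and 4 were called, all higher, beside 0.363% of all genes. With no overlap 15 then lay higher and 1 lower, beside 8.87% and 7.68% of all genes. The list mean was 7.79 to 7.97 (log2) in chow livers, 8.43 to 8.83 in DEN/HFD livers 1 to 3 and 7.67 in the fourth.

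The lysosomal marker Cd68 stood at 51.7, 45.8 and 19 normalized counts in chow and 161, 160, 150 and 45.0 in DEN/HFD livers (0.88 ± 0.25, adjusted p = 0.213, and 0.0289 without the fourth). The phagocyte elastase Mmp12 stood at 8.96, 7.19 and 20.3 in chow and 125, 68.7, 145 and 0.486 in DEN/HFD livers (adjusted p = 0.429 with and 0.0392 without the fourth). Defining genes of the lipid-associated state were low and uneven. Trem2 was at 0, 0 and 12.5 in chow and 83.0, 28.7, 6.97 and 6.397 in DEN/HFD livers, and Gpnmb at 2.03, 0 and 14.6 beside 77.4, 13.8, 54.7 and 0, and neither was called (adjusted p = 0.343 and 0.492). Osteopontin (Spp1) and Cd9 overlapped between the groups.

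Kupffer cell genes, which mark the resident macrophages, also leaned higher. All 22 were kept, 19 were positive with a median of 0.48, none was called, and 10 were higher at an unadjusted p under 0.05. With no overlap 9 of the 22 lay higher, beside 4.73% of all genes. Cd5l, a secreted protein of resident macrophages, stood at 391, 301 and 242 normalized counts in chow and 893, 1108, 674 and 553 in DEN/HFD livers (1.15 ± 0.27, adjusted p = 0.173). The complement gene C1qc stood at 135, 201 and 150 in chow and 431, 566, 318 and 349 in DEN/HFD livers, where the fourth liver was no lower than the third (1.03 ± 0.20, adjusted p = 0.118, and 0.0392 without the fourth). The defining gene Clec4f overlapped, at 243 to 306 in chow and 238 to 924 in DEN/HFD livers, as did Timd4.

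Genes of antigen presentation by MHC class II leaned higher too. Of 18 genes listed 7 were kept, all 7 were positive with a median of 1.20, none was called and 6 were higher at an unadjusted p under 0.05. With no overlap 2 of the 7 lay higher, beside 4.73% of all genes. H2-Ab1 stood at 117, 125 and 134 normalized counts in chow and 858, 528, 380 and 285 in DEN/HFD livers (1.45 ± 0.30, adjusted p = 0.118, and 0.0208 without the fourth). H2-Eb1 stood at 150, 162 and 232 in chow and 910, 666, 491 and 218 in DEN/HFD livers, so the fourth fell within the chow range (adjusted p = 0.192 with and 0.0208 without it). Of 26 T and NK cell genes 4 were kept, 3 of them higher at an unadjusted p under 0.05 and none called. On chow livers alone, Trac (at most 20.5 there, MCOPPB livers included) and Ccl5 would not have passed the filter. Genes kept through DEN/HFD livers lean higher by that choice, so the count of 3 describes only the genes kept. The median of the 4, 0.67 on the deposited scale, was 2.79 with a pseudocount of 1, beside 1.5 for MHC class II. That scale widens differences from chow values at or near 0. The chemokine Ccl5, made by T and NK cells, was at 4.22, 0 and 0 in chow and 133, 50.8, 54.1 and 8.40 in DEN/HFD livers (adjusted p = 0.166 with and 0.0200 without the fourth), while Ncr1, a defining NK gene, was at 0 in all 7.

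Interferon genes leaned the same way, with 40 of 51 positive, a median of 0.30, none called, and 11 higher and 1 lower at an unadjusted p under 0.05. Without DEN/HFD saline 1 this median was 0.16. The ubiquitin-like gene Ubd, induced by interferon and tumour necrosis factor, stood at 4.20, 1.10 and 2.52 normalized counts in chow and 358, 122, 143 and 12.8 in DEN/HFD livers. All 4 DEN/HFD livers exceeded the chow livers (1.80 ± 0.40, adjusted p = 0.145, and 0.00277 without the fourth). The chemokine Cxcl9 stood at 131, 41.3 and 62.8 in chow and 435, 553, 243 and 111 in DEN/HFD livers (adjusted p = 0.201 with and 0.0392 without the fourth). B cell and neutrophil lists gave no call, with 1 and 0 genes at an unadjusted p under 0.05 (limma), and the neutrophil genes S100a8 and Ly6g were at or near 0 in nearly all livers, the exception being S100a8 at 35.04 in DEN/HFD liver 2.

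**Figure D3:**
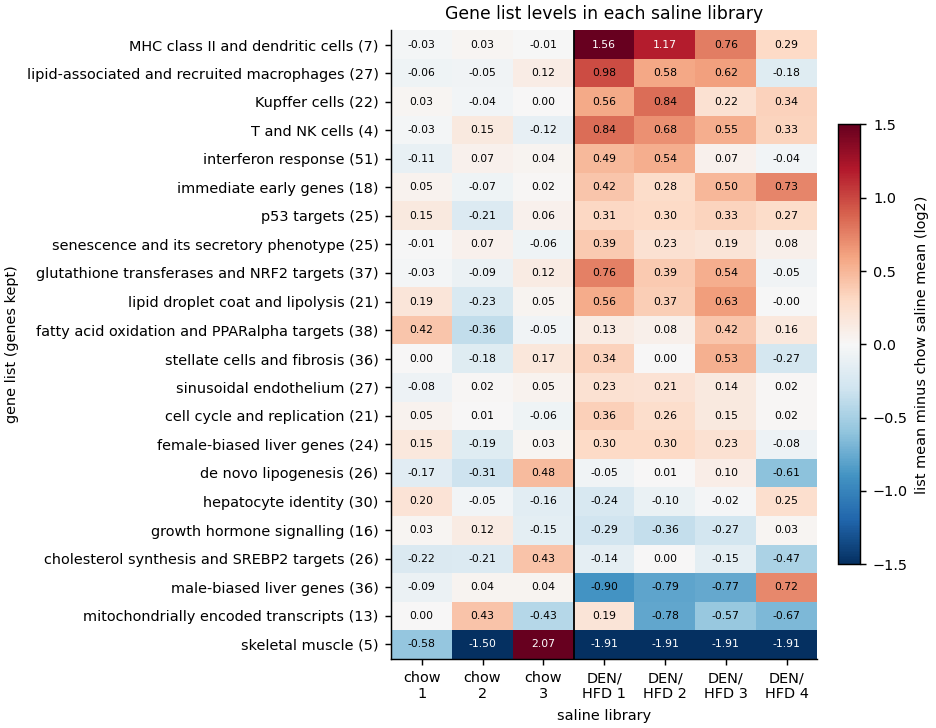
Mean log2 level of 22 gene lists in each saline library, minus the mean of the chow livers, with the number of genes kept in brackets. Red is above and blue below chow, and values past 1.5 take the end colour. Kupffer cell and antigen presentation lists are above chow in every DEN/HFD liver. The recruited and lipid-associated macrophage and NRF2 lists are above chow in DEN/HFD livers 1 to 3 but not in the fourth. The male-biased list is below chow in those 3 and above it in the fourth.

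Fibrosis genes were uneven among the DEN/HFD livers. Of 36 stellate cell and fibrosis genes kept, 27 were positive with a median of 0.19, none was called, and 3 were higher and 1 lower at an unadjusted p under 0.05. The median was 0.08 without DEN/HFD saline 3 and 0.32 without the fourth. Col1a2, a chain of type I collagen, stood at 53.4, 17.8 and 33.5 normalized counts in chow and 234, 86.3, 326 and 26.3 in DEN/HFD livers (1.04 ± 0.36, adjusted p = 0.295, and 1.42 ± 0.29, adjusted p = 0.0392, without the fourth). Col1a1 followed the same order, at 32.5, 35.6 and 74.5 in chow and 278, 101, 340 and 11.6 in DEN/HFD livers, and was not called either way (adjusted p = 0.498 and 0.081). The stellate cell gene Lrat overlapped, and the contractile gene Acta2 was at 22.04 to 70.4 in chow and 2.52 to 46.2 in DEN/HFD livers. The stellate cell gene Pdgfrb was lower with no overlap, at 53.4, 116 and 70.3 in chow and 37.2, 29.4, 47.3 and 29.4 in DEN/HFD livers (-0.53 ± 0.17, adjusted p = 0.26). Of the 36 genes, 1 lay higher and 1 lower with no overlap, beside 4.73% and 4.36% of all genes. Annexin A2 (Anxa2) and galectin-1 (Lgals1), which rise in many injured tissues, stood at 108 to 211 and 240 to 396 in chow livers. In DEN/HFD livers 1 to 3 they reached 461 to 976 and 959 to 1731, and in the fourth 108 and 120, with adjusted p of 0.26 and 0.467 with and 0.0176 and 0.0392 without it.

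DNA damage and senescence lists are of interest because MCOPPB is tested in the series as a senolytic, a drug meant to remove senescent cells. Of 25 p53 targets kept, 21 were positive with a median of 0.34, none was called, and 6 were higher and 1 lower at an unadjusted p under 0.05. The median was 0.19 without chow saline 2. Their mean level was 7.76 to 7.82 (log2) in the 4 DEN/HFD livers, the fourth included, and 7.28 to 7.64 in chow livers. The cell cycle inhibitor Cdkn1a nevertheless overlapped, at 12.6, 43.4 and 17.0 normalized counts in chow and 76.0, 32.8, 65.0 and 12.6 in DEN/HFD livers (0.34 ± 0.28, adjusted p = 0.708). Btg2, another p53 target that is also an immediate early gene, stood at 39.8, 0 and 33.5 in chow and 50.5, 104, 118 and 79.0 in DEN/HFD livers (1.02 ± 0.27, adjusted p = 0.192). Cdkn2a, the senescence marker p16, was at 8.02 or below everywhere and did not pass the filter. Of 25 senescence genes kept, 21 were positive with a median of 0.31, none was called, and 6 were higher and 3 lower at an unadjusted p under 0.05. The proliferation marker Mki67 stood at 11.5, 0 and 0 in chow and 49.2, 17.1, 32.7 and 4.20 in DEN/HFD livers (0.75 ± 0.24, adjusted p = 0.26).

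The male pattern of the liver split the DEN/HFD livers. Over 36 male-biased genes kept, the mean level was 11.73, 11.86 and 11.86 (log2) in chow livers, 10.92, 11.03 and 11.05 in DEN/HFD livers 1 to 3, and 12.54 in the fourth. With all libraries 26 differences were negative with a median of -0.25, 1 gene was called (Cyp4a12b) and 7 were lower at an unadjusted p under 0.05. With no overlap 2 of the 36 lay lower, beside 4.36% of all genes. Without DEN/HFD saline 1 the median was -0.14. Without the fourth it was -0.63, and 2 were called, Cyp4a12b and Hsd3b5, both lower, beside 0.0864% of all genes. With no overlap 16 then lay lower, beside 7.68% of all genes. Hsd3b5, a male steroid dehydrogenase, stood at 1804, 1956 and 1335 normalized counts in chow, 27.9, 66.3 and 48.5 in DEN/HFD livers 1 to 3 and 2053 in the fourth. Its log2 difference was -2.85 ± 0.74 with all libraries (adjusted p = 0.181) and -3.89 ± 0.36 without the fourth (adjusted p = 8.52e-05). The major urinary protein gene Mup11, one of many near-identical copies whose reads may be split, was at 40148 to 62331 in chow, 24584 to 41496 in DEN/HFD livers 1 to 3 and 439284 in the fourth. Mup20, another male major urinary protein gene, stood at 122817, 112338 and 99355 in chow and 281330, 75878, 196322 and 219316 in DEN/HFD livers, so that DEN/HFD livers 1, 3 and 4 exceeded every chow liver (0.65 ± 0.43, adjusted p = 0.628).

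Not every male-biased gene followed this split. Elovl3, a fatty acid elongase of male liver, stood at 865, 589 and 613 normalized counts in chow and 320, 326, 328 and 183 in DEN/HFD livers, lowest in the fourth (-1.06 ± 0.27, adjusted p = 0.179). Genes of growth hormone signalling had a median of -0.17 over 16 kept, with 5 positive, none called and 2 at an unadjusted p under 0.05, both lower. The median was -0.09 without chow saline 1 and -0.32 without DEN/HFD saline 4. The epidermal growth factor receptor Egfr, which growth hormone maintains in liver, stood at 3039, 3667 and 1642 in chow and 703, 806, 1144 and 2833 in DEN/HFD livers (-1.11 ± 0.42, adjusted p = 0.323). Of 24 female-biased genes kept, 17 were positive with a median of 0.12 (0.05 without chow saline 2 and 0.25 without chow saline 1), and 1 was called (Cyp2b9). The female-biased Cyp2a4 stood at 17.8, 0 and 16.8 in chow and 246, 185, 295 and 2.11 in DEN/HFD livers (adjusted p = 0.418 with and 0.154 without the fourth).

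Among other hepatocyte genes, the named ones were not called with all libraries. Dio1, the deiodinase that activates thyroid hormone, did not overlap, at 308, 332 and 438.5 normalized counts in chow and 652, 958, 1037 and 1105 in DEN/HFD livers, where the fourth was the highest (1.19 ± 0.24, adjusted p = 0.118). The bile acid importer Slc10a1 stood at 5517, 5518 and 5894 in chow and 2508, 3050, 2497 and 4527 in DEN/HFD livers, also with no overlap (-0.87 ± 0.26, adjusted p = 0.228). Glutamine synthetase (Glul), which marks the hepatocytes around the central vein where DEN is activated, stood at 9449, 7143 and 8184 in chow and 15746, 13692, 15892 and 10309 in DEN/HFD livers (0.73 ± 0.21, adjusted p = 0.204). Its list of 30 pericentral genes was mixed, with 16 positive and 14 negative and a median of 0.17 (-0.05 without DEN/HFD saline 4). None of the 30 was called, and 5 were higher and 1 lower at an unadjusted p under 0.05. The 27 periportal and urea cycle genes had the same median of 0.17, with 19 positive and none called. Keratin 8 (Krt8), a structural protein of hepatocytes, stood at 1392, 1191 and 1281 in chow, 3051, 2511 and 3512 in DEN/HFD livers 1 to 3 and 1347 in the fourth (adjusted p = 0.228 with and 0.0249 without it). The 30 hepatocyte identity genes had a median of -0.06, with 14 positive and none called (2 higher and 2 lower at an unadjusted p under 0.05). Mitochondrially encoded transcripts had negative differences for 12 of 13, with a median of -0.44 (-0.70 without DEN/HFD saline 1 and -0.25 without chow saline 2), none called and 2 at an unadjusted p under 0.05, both lower.

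In the next lists no member was called with all libraries. Sinusoidal endothelium, whose cells line the liver's capillaries, had 16 of 27 genes positive with a median of 0.09 and 5 higher at an unadjusted p under 0.05. With no overlap 5 of the 27 lay higher, beside 4.73% of all genes. Glucocorticoid targets and metallothioneins were positive for 20 of 24 with a median of 0.21 (0.40 without chow saline 1), with 1 at an unadjusted p under 0.05. Acute phase proteins, which the liver secretes in inflammation, were positive for 19 of 34 with a median of 0.18 (0.03 without DEN/HFD saline 1), with 3 at an unadjusted p under 0.05, 2 of them lower. Genes of the unfolded protein and ATF4 stress responses had a median of -0.18 over 29 genes (-0.06 without chow saline 1), 11 of them positive, with 1 higher and 3 lower at an unadjusted p under 0.05. Clock genes (22) and nuclear-encoded subunits of the respiratory chain (41) had medians of -0.01 and 0.03, with 2 and 0 members at an unadjusted p under 0.05.

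The same contrast in livers of MCOPPB mice called 66 genes (0.571%), 26 higher (0.225%) and 40 lower (0.346%). The first RNA integrity value separated these groups, at 9.9 to 10 in chow and 8.7 to 9.2 in DEN/HFD MCOPPB livers, and with it as a covariate 0 genes were called (limma, 1559 at an unadjusted p under 0.05), Gpc1 included, so that it and the treatment cannot be told apart in MCOPPB livers. Of the 6 genes called in saline livers, 2 were also called there, which is 33.3% of the 6 and 3.03% of the 66. Cyp2b9, 1 of the 2, was lower under DEN/HFD there (-1.37 ± 0.29), opposite to its direction in saline livers. Gpc1 was higher under DEN/HFD there too, at 62.6, 61.7, 56.5, 70.6 and 35.5 normalized counts in chow and 464, 413 and 432 in DEN/HFD MCOPPB livers (1.99 ± 0.24, adjusted p = 0.000469). The difference between both effects was 0.22 ± 0.35 (adjusted p = 0.927). Jun and Jund had log2 differences of 0.97 ± 0.27 and 1.00 ± 0.28 and were not called (adjusted p = 0.127 for each). Cyp4a12b and Ttn were not called either, at -1.07 ± 0.35 and -0.18 ± 0.33. Ttn was at 83.3 in chow MCOPPB 4 and at 0 to 0.669 in the other 4 chow MCOPPB livers. Chow MCOPPB 4 also carried other muscle transcripts, with Acta1 at 671, Tnnt3 at 893, Mb at 434 and Ckm at 388, all of them at 0 in the other 4.

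Of the 52 genes called without DEN/HFD saline 4, 48 had the same sign in MCOPPB livers, 39 of the 42 higher and 9 of the 10 lower genes, beside 62.2% of all genes tested. The median MCOPPB difference of the 42 was 0.84 and that of the 10 was -0.32. Both contrasts share the estimate of spread but no library. The genes called in both were Anxa2, Cyp2b9, Gpc1, Osbpl3 and Rad51b, 9.62% of the 52 and 7.58% of the 66. Cyp2b9 was higher under DEN/HFD in saline and lower in MCOPPB livers, and the others were higher in both. Osbpl3, a lipid-binding protein, stood at 82.5, 35.1 and 26.04 normalized counts in chow saline and 238, 154, 406 and 92.8 in DEN/HFD saline livers, and at 14.5 to 23.4 in chow and 107 to 182 in DEN/HFD MCOPPB livers. Cidec, not called there (adjusted p = 0.0513), was at 0 to 17.4 in chow and 367, 118 and 578 in DEN/HFD MCOPPB livers.

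The difference between both DEN/HFD effects was called for 8 genes (0.0692%), 3 with a higher effect in MCOPPB livers (0.0259%) and 5 with a lower one (0.0432%). Cyp2b9 reversed its sign. In MCOPPB livers it stood at 2847, 3010, 4167, 2115 and 4341 normalized counts on chow and 1250, 1310 and 1011 under DEN/HFD, so every MCOPPB liver exceeded every saline liver. The DEN/HFD difference was 2.57 in saline and -1.37 ± 0.29 in MCOPPB livers (adjusted p = 0.0411), and the difference between them -3.93 ± 0.43 (adjusted p = 0.00046). Its neighbour Cyp2b13 did likewise, with 141 to 446 in chow and 66.9 to 84.9 in DEN/HFD MCOPPB livers and a difference between effects of -1.93 ± 0.32 (adjusted p = 0.0394). Elovl3 went the other way, from -1.06 ± 0.27 in saline to 2.18 ± 0.26 in MCOPPB livers, where it stood at 18.3 to 83.6 on chow and 266, 383 and 709 under DEN/HFD (difference 3.24 ± 0.37, adjusted p = 0.000535).

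**Figure D4:**
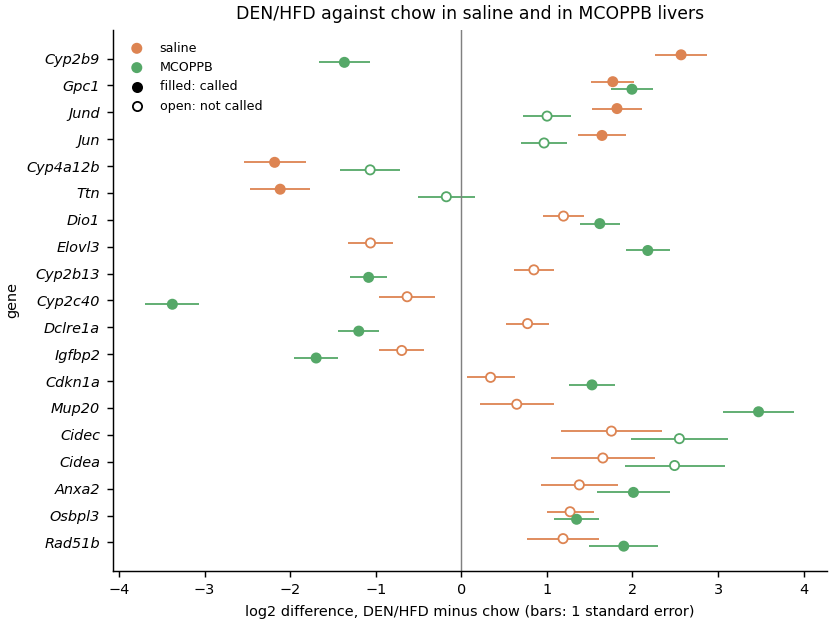
Log2 difference between DEN/HFD and chow for 19 genes, in saline (orange) and in MCOPPB livers (green), with bars of 1 standard error and filled points for called genes. Gpc1 is higher by about the same amount in both, while Cyp2b9 and Cyp2b13 are above 0 in saline and below 0 in MCOPPB livers and Elovl3 the reverse.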

How the data were processed

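RNA of 15 mouse livers was sequenced as single reads of 75 bases from directional libraries, per the labels' protocols. The submitters' processing notes name Trimmomatic, STAR 2.7.0e, HTSeq, DESeq2 and the GRCm38 (mm10) build, with no settings. The authors deposited variance-stabilised log2 levels of 54281 Ensembl gene IDs, and their lowest value, 5.49, stands for 0 reads. They were inverted to normalized counts for levels. Inverted values below 20 reads came out whole, to within 0.01, for 15.1% to 45.1% of genes depending on the library, so counts were not recovered, no count test was run, and depths are estimates from the step that 1 read makes. Depth limits the precision of genes with few reads, and no counting interval is given. Every column was matched to a sample by its name. GENCODE M21 gave names and positions (54107 IDs found) and RefSeq the promoter sequences (GRCm38.p6).

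Genes were kept when at least 1 (log2) above the lowest value, or 22.5 normalized counts, in at least 3 libraries. A gene could pass through the livers of a single diet, which by itself favours a difference on that side. limma 3.58.1 in R 4.3.3 fitted 4 group means over all genes and all 15 libraries, with eBayes and a mean-variance trend (11 residual degrees of freedom, median prior 6.34). The Benjamini-Hochberg adjusted p was taken over 11568 genes, two-sided, and genes were called under 0.05. Errors are moderated standard errors or standard deviations between libraries, each said to be a separate mouse only by its title, so p values measure the spread between these libraries. Gene lists (44) are given by counts and medians with no test of the list. Each quality measure was compared by an exact permutation test over 35 arrangements. Named genes were the called genes with no overlap (at most 12 each way, without predicted genes), from each list its called members and up to 2 others by smallest p, a set of liver markers and the 6 smallest p for the difference between effects. The genes called without DEN/HFD saline 4 and further members of lists were added after their values were seen. The members, lists and tests were chosen with earlier results of these data known. Replicate numbers were treated as labels. The scripts were tested on simulated data. Filters, scales, centring, variance models, RNA integrity covariates, a replicate block and left-out libraries were tried as alternatives.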

Additional observations from a re-analysis of the deposited data

Results flagged for a closer look

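Within the 4 DEN/HFD saline livers, 69 genes and list means were checked for a value far from the other 3, and 6 passed the 95% limit of Dixon's ratio of gap to range for 4 samples, where chance flags about 1 in 20. In 4 of the 6 the apart library was DEN/HFD saline 4. It was the lowest for Elovl3 (0.953) and Fasn (0.861) and the highest for the male-biased list (0.916) and the list of bile acid synthesis and transport (0.961). DEN/HFD saline 3 was the highest for Alb (0.880) and for Gm43302 (1.000), which was at 0 in the other 3.

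For 8 genes the DEN/HFD effect differed between MCOPPB and saline livers by the test of the difference itself (limma, adjusted p under 0.05). The difference of effects was lower in MCOPPB livers for Cyp2b9 (-3.93), Cyp2c40 (-2.74), Usp2 (-2.25), Dclre1a (-1.97) and Cyp2b13 (-1.93). It was higher for Elovl3 (3.24), Gm43302 (2.56) and Dtx4 (1.47).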

How the results depend on the processing

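For DEN/HFD against chow in saline livers, 6 genes were called. The count was 4 with only the 7 saline libraries, of them 1 higher beside 4, and 3 with a pseudocount of 10 or with array weights. It was 1 with the first RNA integrity value as a covariate or with mitochondrial transcripts left out of the total. The fit without mitochondrial transcripts also used the pseudocount of 10, and its scaling moved the median of all genes to -0.19. The count was 22 without DEN/HFD saline 4 and chow saline 3, chosen after seeing the data. With the replicate block it stayed at 6, and saline libraries with the same number did not pair (mean correlation of deviations -0.0429, 1 of 3 above 0.1). With 1 library left out the count ran from 1 to 52. In MCOPPB livers, beside 66, it was 285 with array weights, 135 with only the 8 libraries compared, 34 with the second and 0 with the first integrity value (limma, 1559 at an unadjusted p under 0.05), 16 with the replicate block and 18 to 78 with 1 library left out. For the difference between effects, beside 8, it was 2 with no filter, 4 with a pseudocount of 1 or 10, 3 with the first and 2 with the second integrity value, 2 with the replicate block and 2 to 12 with 1 library left out. The cause of these changes was not tested. Of 169 genes under 28 alternatives, 1 value reversed: Fabp4 went from -0.45 to 0.76 without DEN/HFD saline 4 and chow saline 3, and 54 values of uncalled genes changed sign by less than 2 standard errors. List medians kept their sign relative to the shift under the scalings, except those near 0 for lipogenesis, apolipoproteins, circadian clock, pancreas and nuclear-encoded OXPHOS genes. With 4 and 3 livers the exact test cannot go below p = 0.0286.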
